A study of Solanum lycopersicum with 24 samples.

Results

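The second collection of type VI trichome gland cells was compared with the first in tomato (Solanum lycopersicum), with 3 libraries a side out of 12 in the series. Each side held 1 library of the af mutant, 1 of complemented line #4 (CHI4) and 1 of complemented line #9 (CHI9), so the libraries were paired by genotype. They were chosen by the sampling time in the labels, #1 or #2, and the deposited files of collections 1 and 2 are marked with month 3 and days 19 and 28. Whether those marks give the day of harvest, of RNA preparation or of sequencing is not stated. The labels give the same growth for all groups: soil in a chamber at 28 ºC and 250 μE, for 5 weeks, with no treatment that differs between the collections. The series' design calls the collections independent, but the plants or pools behind a library are not described, so p-values here measure the spread between these libraries only. Each line is 1 complementation line, and the promoter of its introduced gene is not given in the labels. All 34725 gene models were used, of which 18326 had enough counts to be tested.

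Type VI trichomes are leaf hairs with a stalk and a head of a few gland cells. The gland cells make and store monoterpenes, which start from the plastid methylerythritol phosphate (MEP) pathway, and sesquiterpenes, and they also make flavonols, which start from phenylalanine. That af lacks a working chalcone isomerase, the enzyme that closes the flavanone ring, comes from general knowledge, and the labels do not say it. Transcripts of leaf cells also follow the hour of harvest through the circadian clock and respond within hours to light, heat, wounding and handling. The hour of harvest is not given in the labels.

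The 6 libraries held 8.99 to 70.9 M gene counts. CHI9 of collection 2 was the shallowest, where 3 counts over the library total, the limit set by a count of 0, come to 0.334 CPM (counts per 1 M gene counts), against 0.0423 CPM in af of collection 1. These limits cover counting error only and are not scaled further. All gene levels below are CPM after TMM scaling, with factors of 0.8645 to 1.284 in the 6 libraries. Both CHI9 libraries stood apart from the other 10 of the series. CHI9 of collection 2 lay at -120.1 on the second principal component, and CHI9 of collection 1 at 116.1 on the third. For the called genes described and for listed loci, calls that change when the CHI9 pair is left out are given beside the result. CHI1 (Solyc05g010320), the locus taken as mutated in af, had 211, 418 and 529.7 CPM in af, CHI4 and CHI9 of collection 1 and 252, 1167 and 701 CPM in collection 2. Both af libraries lay below all 4 line libraries, and reads of the native and of an introduced copy cannot be told apart in these counts. Defining loci of the type VI gland were abundant in both collections, among them the terpene synthase TPS12, at 2458, 11726 and 8660.4 CPM in af, CHI4 and CHI9 of collection 1 and 2235, 8209 and 9372 CPM in collection 2.

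Few genes were called between the collections by the main test. Of 18326 genes tested, 16 passed an adjusted p of 0.05 in edgeR's quasi-likelihood test, which was 0.0873% of the genes. Of these, 15 rose in collection 2 (0.0819%) and 1 fell (0.00546%), and 13 of the rises and the fall were at least 2-fold. All 16 moved the same way in each of the 3 genotypes, as 25.3% of all tested genes did. In 9 of the 16, all of them rises, the 3 libraries of collection 2 lay above all 3 of collection 1, against 3.08% of all tested genes. A gap of either sign was found for 6.09% of genes, and collection 2 below collection 1 for 3.01%. The 15 rises spanned log2 differences of 0.77 to 2.24 with a median of 1.20, while the median over all tested genes was -0.01. An unadjusted p under 0.05 was reached by 1414 genes (7.72%), 713 higher in collection 2 and 701 lower (3.83%), and 48.3% of all differences were above 0. In bulk RNA, a change in the share of a cell type and a change in RNA per cell cannot be told apart.

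The gland's main transcripts were not among the 16. Of the 100 genes with the most counts, all tested, 0 were called by edgeR, and their log2 differences ran from -0.49 to 0.55. The median standard error was 0.221 on the log2 scale over the 11859 tested genes that averaged at least 5 CPM. In simulated data of this design, edgeR recovered 8% of genes changed by 0.5 on the log2 scale, 56% of those changed by 1 and 98% of those changed by 2, so small changes were mostly below detection.

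The only called gene on the lists was LHY (Solyc10g005080), a MYB transcription factor that in Arabidopsis is expressed around dawn and represses evening genes of the clock. LHY had 53.8, 51.7 and 37.6 CPM in af, CHI4 and CHI9 of collection 1 and 117, 85.7 and 83.9 CPM in collection 2. All 3 libraries of collection 2 lay above all 3 of collection 1, and the lowest of collection 2 was CHI9. LHY rose by 1.00 on the log2 scale (SE 0.159, 95% interval 0.67 to 1.33, edgeR adjusted p = 0.00912). The difference was 1.11 in af, 0.72 in CHI4 and 1.15 in CHI9. Its sign held in all 20 alternatives (0.87 to 1.11), but the call was lost in 6 of them, with adjusted p-values from 4.55e-06 to 1.00. LHY had an edgeR adjusted p of 0.0692 without af of collection 1, 0.0960 without CHI9 of collection 2 and 0.0512 without the CHI9 pair.

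The other 13 clock loci tested did not pass, so 1 of 14 was called, and the median of the list was -0.06. Differences ran from -1.08 to 1.00, and 4 of the 14 were above 0, against 48.3% of all tested genes. Besides LHY, 1 clock locus had an unadjusted p under 0.05, lower in collection 2, as did 3.83% of all tested genes. GI1 (Solyc04g071990), a locus of GIGANTEA, which in Arabidopsis acts in the evening and in day-length sensing, had 65.1, 91.6 and 137 CPM in collection 1 and 46.3, 87.3 and 97.5 CPM in collection 2. It was lower in collection 2 in all 3 genotypes while the collections overlapped (log2 -0.36, SE 0.173, edgeR adjusted p = 0.643). Its paralogue GI2 (Solyc12g056650) had a log2 difference of 0.17.

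Among the pseudo-response regulators, which in Arabidopsis repress LHY in turn through the day, PRR9 (Solyc10g005030) had 46.5, 96.2 and 196 CPM in collection 1 and 58.4, 191 and 151 CPM in collection 2. PRR9 was higher in collection 2 in af and CHI4 and lower in CHI9. PRR5 (Solyc03g081240), PRR7a (Solyc10g086000), PRR7b (Solyc04g049670) and TOC1 (Solyc06g069690) had log2 differences of -0.08, -0.13, -0.19 and 0.21. EID1 (Solyc09g075080), an F-box protein whose altered allele slows the clock of cultivated tomato, had 7.86, 8.35 and 14.2 CPM in collection 1 and 7.69, 7.06 and 5.19 CPM in collection 2, with all of collection 2 below all of collection 1 (log2 -0.59, edgeR adjusted p = 0.709). Such a gap was found for 3.01% of all tested genes. FKF1 (Solyc01g005300), a blue-light F-box protein, was lower in af and CHI4 and higher in CHI9 (72.2, 207 and 168 CPM in collection 1 and 41.6, 160.3 and 243 CPM in collection 2).

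**Figure D1:**
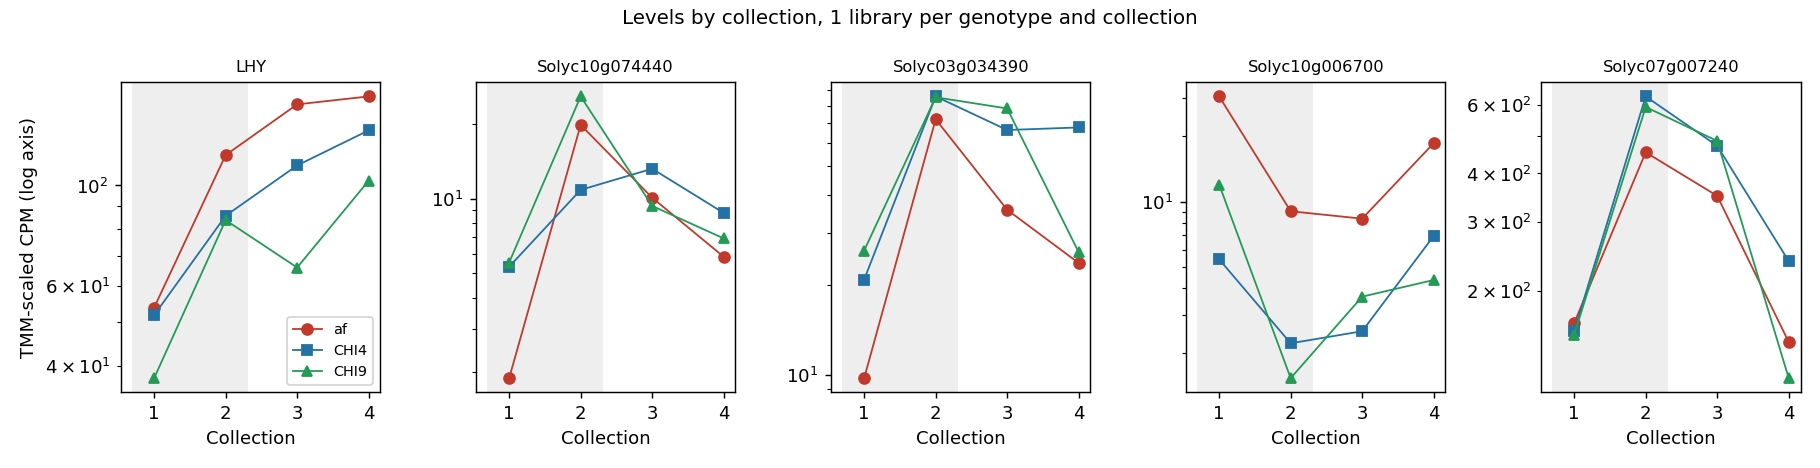
Levels of LHY and 4 unnamed loci in TMM-scaled CPM (log axes) in each of the 4 collections, with 1 point per library, joined by genotype, and collections 1 and 2 shaded. LHY lay between 37.6 and 53.8 CPM in collection 1 and between 83.9 and 117 CPM in collection 2, and Solyc07g007240 was at 453 to 631 CPM in collection 2 and at 119 to 238 CPM in collection 4.

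The other 15 called genes carry no name here, because the files give locus numbers only and the reference table holds none of them. By the rule for named genes, Solyc10g074440 and Solyc03g034390 had the largest rises. Solyc10g074440 had 1.89, 5.32 and 5.53 CPM in collection 1 and 19.8, 10.9 and 25.8 CPM in collection 2, with CHI4 the lowest library of collection 2. It rose by 2.24 on the log2 scale (SE 0.381, edgeR adjusted p = 0.0203), although that call was lost in 9 of 20 alternatives. These included the fits without af of collection 1 (edgeR adjusted p = 0.0988), without af of collection 2 (0.0701), without CHI9 of collection 2 (0.166) and without the CHI9 pair (0.0514). Over all 20 alternatives the adjusted p of Solyc10g074440 ran from 2.39e-08 to 0.693.

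Solyc03g034390 had 9.77, 20.9 and 26.1 CPM in collection 1 and 71.9, 85.8 and 85.3 CPM in collection 2, and the collections did not overlap. It rose by 2.21 (SE 0.308, edgeR adjusted p = 0.0203), and the call was lost in 5 of 20 alternatives (adjusted p from 8.27e-26 to 1.00). Without 1 library the adjusted p was 0.0984 for af of collection 1, 0.132 for CHI4 of collection 1 and 0.107 for CHI9 of collection 2, and without the CHI9 pair it was 0.0718.

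Solyc07g007240 was singled out after its values were seen, because it had the smallest adjusted p of all genes. It had 165, 157 and 154 CPM in collection 1 and 453, 631 and 593 CPM in collection 2, so the 3 libraries of collection 1 lay close together and all of collection 2 lay above them. It rose by 1.79 (SE 0.184, edgeR adjusted p = 8.19e-05). It was called in 19 of 20 alternatives, the exception being the fit without genotype, where its adjusted p was 0.272, the highest of a range from 2.38e-23.

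The single fall was Solyc10g006700, also named after its values were seen because it was the only one. It had 30.6, 5.42 and 11.99 CPM in collection 1 and 9.03, 2.22 and 1.53 CPM in collection 2. Each genotype was lower in collection 2, but af of collection 2 lay above CHI4 of collection 1, so the collections overlapped. Solyc10g006700 fell by 1.96 (SE 0.362, edgeR adjusted p = 0.0341). The call was lost in 12 of 20 alternatives (adjusted p from 2.49e-05 to 1.00), among them the fits without CHI9 of collection 2 (edgeR adjusted p = 0.167), CHI9 of collection 1 (0.0897), the CHI9 pair (0.0960), CHI4 of collection 2 (0.132), af of collection 1 (0.193) or af of collection 2 (0.0612).

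Flavonoid loci passed the test in 0 of 15 cases, with most differences above 0. An unadjusted p under 0.05 with a higher level in collection 2 was found for 7 of the 15, against 3.89% of all tested genes. One of the 7, AN2, had almost no counts. The median log2 difference of the list was 0.45, against -0.01 for all tested genes, and 8 of the 15 were higher in all 3 genotypes, against 11.8% of all genes. By DESeq2 and by limma-voom 0 of the 15 were called as well, and with no filter on low counts 1 was, CHI1 (edgeR adjusted p = 0.00252). Of all tested genes DESeq2 called 0.447%, limma-voom 0.382% and edgeR with no filter 0.811%, against 0.0873% in the main test. For Solyc03g034390 the edgeR adjusted p was 8.27e-26 with no filter and 0.0203 in the main test. Values that small from 3 libraries a side are read with caution.

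Chalcone synthase, which opens the pathway by joining a phenylpropanoid to malonyl units, is encoded here by CHS1 and CHS2. CHS1 (Solyc09g091510) had 3398, 3834 and 3057 CPM in collection 1 and 3609, 5162 and 4120.1 CPM in collection 2. CHS2 (Solyc05g053550) had 2924, 2672 and 2240.2 CPM in collection 1 and 2914, 4615 and 3281 CPM in collection 2. CHS2 was level in af and higher in both lines, and each locus overlapped between collections (log2 0.32 for CHS1 and 0.45 for CHS2, edgeR adjusted p = 0.610 and 0.495).

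The next step is that of chalcone isomerase. CHI1, whose levels are given above, was higher in collection 2 in each genotype, by 0.26 in af, 1.48 in CHI4 and 0.40 in CHI9 on the log2 scale (fitted 0.72, SE 0.207, edgeR adjusted p = 0.395). CHIL (Solyc05g052240), a chalcone isomerase-like protein that aids chalcone synthase in other plants, had 656, 1511 and 859.7 CPM in collection 1 and 902, 1900.0 and 1553 CPM in collection 2. It too was higher in each genotype, with overlap (log2 0.53, SE 0.171, edgeR adjusted p = 0.436).

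Further down, F3'H (Solyc03g115220), which adds a hydroxyl group to the B ring, had 1526, 1272 and 817 CPM in collection 1 and 2262, 1818 and 1198 CPM in collection 2. Its log2 difference of 0.55 was nearly the same in the 3 genotypes, but CHI9 of collection 2 stayed below af and CHI4 of collection 1. FLS (Solyc11g013110), flavonol synthase, had 1667, 1904 and 1405 CPM in collection 1 and 2084, 2519 and 2093 CPM in collection 2. FLS was the only one of these 6 enzyme loci whose collections did not overlap (log2 0.43, SE 0.140, 95% interval 0.14 to 0.72, edgeR adjusted p = 0.443). Collection 2 lay wholly above collection 1 for 1 of the 15 flavonoid loci, FLS, and for 3.08% of all tested genes. F3H (Solyc02g083860), flavanone 3-hydroxylase, had a log2 difference of 0.23, and the rhamnosyltransferase RT (Solyc09g059170), which decorates flavonols, had 0.12.

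Regulators of the pathway did not move together. MYB12 (Solyc01g079620), an activator of flavonol genes, had 198, 69.2 and 70.4 CPM in collection 1 and 180.3, 141 and 78.1 CPM in collection 2, with a higher level in CHI4 alone of at least 1 log2 unit. AN11 (Solyc03g097340), a WD40 protein of the anthocyanin regulatory complex, lay lower in collection 2 without overlap, at 15.7, 19.4 and 22.6 CPM in collection 1 and 12.4, 14.4 and 13.7 CPM in collection 2 (log2 -0.49, edgeR adjusted p = 0.643). A gap in that direction was found for 3.01% of all tested genes. AN2 (Solyc10g086250), a MYB activator of anthocyanin genes, had 0 counts in the 3 libraries of collection 1 and in CHI9 of collection 2, and at most 0.301 CPM in the others.

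Phenylalanine ammonia-lyase (PAL) opens the phenylpropanoid route that feeds the flavonoids. None of the 8 tested loci of this entry list was called by edgeR, while DESeq2 and limma-voom called 1 each and edgeR with no filter on low counts called 2. These 3 settings called 0.447%, 0.382% and 0.811% of all tested genes, against 0.0873% in the main test. Of the 8, 4 had an unadjusted p under 0.05, all 4 higher in collection 2, against 3.89% of all tested genes. The median was 0.50, against -0.01 for all tested genes. Differences above 0 were found for 6 of the 8, and the lowest was -1.15. PAL-f (Solyc10g086180) had 85.7, 199.6 and 214 CPM in collection 1 and 129.99, 657 and 304 CPM in collection 2, highest in CHI4 of collection 2. The collections overlapped because af of collection 2 lay below CHI4 and CHI9 of collection 1. Its log2 difference was 0.95 (SE 0.263) with an adjusted p of 0.395 in edgeR, 0.0164 in DESeq2, 0.0471 in limma-voom, 0.0109 in limma-voom with library weights and 4.00e-06 in edgeR with no filter on low counts. PAL-f was called in these 4 of the 20 alternatives.

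PAL-b (Solyc09g007910) had 619.6, 346 and 374 CPM in collection 1 and 779, 832 and 430.5 CPM in collection 2. The log2 difference was 1.27 in CHI4, while af and CHI9 differed by 0.33 and 0.20. PAL-b was called in 1 of the 20 alternatives, edgeR with no filter on low counts (adjusted p = 0.0326). PAL-a (Solyc09g007900) and PAL-c (Solyc09g007920) had log2 differences of 0.49 and 0.50, and each was higher in all 3 genotypes. The PAL loci are close copies that may share reads, which makes each single value uncertain.

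**Figure D2:**
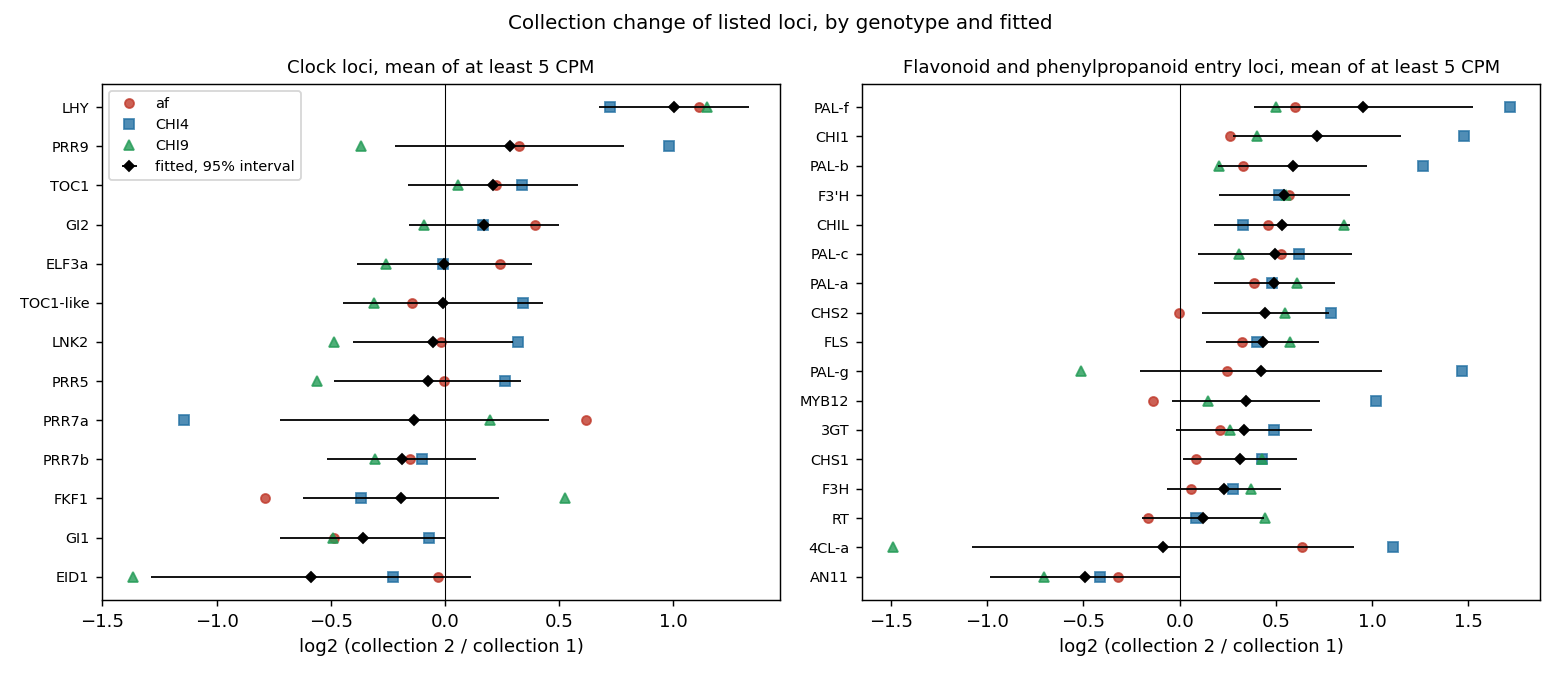
Log2 difference between collection 2 and collection 1 for clock loci (left) and flavonoid and phenylpropanoid entry loci (right) with a mean of at least 5 CPM. Coloured points are the 3 genotypes, and black diamonds with bars are edgeR's fitted values with 95% intervals that are not adjusted for the number of genes. LHY lies at 1.00 above 12 other clock loci, and most flavonoid loci lie between 0 and 0.72, with CHI4 at 1.48 for CHI1.

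As a share of all gene counts, the flavonoid list took 1.85, 1.48 and 1.30% in collection 1 and 2.07, 2.24 and 1.75% in collection 2. Each genotype was higher in collection 2, but CHI9 of collection 2 lay below af of collection 1, and 3 pairs cannot give a p under 0.25 by exact sign flips. The mean share was 0.476 percentage points higher in collection 2, and 0.0618 when the 100 genes with the most counts, which include the main flavonoid enzymes, were left out of list and total. The phenylpropanoid entry list took 0.184, 0.0944 and 0.107% in collection 1 and 0.247, 0.228 and 0.127% in collection 2, higher in each genotype as well.

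The terpenoid genes of the gland showed 0 calls on every list, by edgeR, DESeq2 and limma-voom alike, and 0 unadjusted p-values under 0.05. With no filter on low counts 1 terpene synthase, TPS33, was called by edgeR (adjusted p = 2.24e-04), in a fit that called 0.811% of all tested genes. The 8 loci of the MEP pathway all had slightly negative log2 differences, from -0.29 to -0.03. DXS2 (Solyc11g010850), the first enzyme of that pathway in trichomes, had 1367, 3912 and 2760.3 CPM in collection 1 and 1346, 2737 and 3197 CPM in collection 2. DXS2 was level in af, lower in CHI4 and higher in CHI9, so the genotypes did not move together.

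NDPS1 (Solyc08g005680), neryl diphosphate synthase, which makes the precursor of the gland's monoterpenes, had 635, 8934 and 6763 CPM in collection 1 and 625, 6844 and 7675 CPM in collection 2. TPS19/20 (Solyc08g005670), a locus of monoterpene synthases whose near-identical copies may share reads, had 540.1, 4291 and 3521 CPM in collection 1 and 377, 3136 and 4574 CPM in collection 2. In both loci CHI4 was lower and CHI9 higher in collection 2. The fitted differences were -0.08 (95% interval -0.42 to 0.26) for NDPS1, -0.17 (-0.57 to 0.22) for TPS19/20 and -0.19 (-0.52 to 0.14) for TPS12.

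Of the 11 terpene synthases tested 1 had a positive difference and the median was -0.22. TPS33 (Solyc01g101170) had 4.95, 82.9 and 77.0 CPM in collection 1 and 3.46, 21.4 and 54.5 CPM in collection 2, the lowest fitted difference of the list (log2 -0.998, SE 0.448, edgeR adjusted p = 0.643). It was lower in collection 2 in each genotype, with overlap because the af libraries lay far below the lines. The terpene synthase list took 0.445, 1.65 and 1.37% in collection 1 and 0.398, 1.24 and 1.49% in collection 2 of gene counts.

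Of the regulators of type VI trichomes 0 of 5 were called by edgeR, DESeq2 or limma-voom. MYC1 (Solyc08g005050), a basic helix-loop-helix factor needed for type VI glands, had 722, 641 and 700.0 CPM in collection 1 and 609, 719 and 740.3 CPM in collection 2. Its fitted difference was 0.00 (95% interval -0.28 to 0.29), the sign of which turned in 9 alternatives. EOT1 (Solyc02g062400), an activator of terpene synthase promoters, had 170.5, 89.6 and 114 CPM in collection 1 and 215, 119 and 122 CPM in collection 2, higher in each genotype with overlap (log2 0.28, edgeR adjusted p = 0.683).

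Heat shock genes gave 0 calls among 17 tested in edgeR and in DESeq2, 1 in limma-voom and 2 in edgeR with no filter on low counts, with a median of 0.26. Of all tested genes limma-voom called 0.382% and edgeR with no filter 0.811%, against 0.0873% in the main test. HSP101 (Solyc03g115230), a chaperone that dissolves protein aggregates, had 48.2, 12.5 and 13.6 CPM in collection 1 and 146, 50.8 and 15.9 CPM in collection 2. The log2 difference was 1.98 in CHI4, 1.59 in af and 0.22 in CHI9, and CHI9 of collection 2 lay among the collection 1 values. HSP101 had a fitted difference of 1.28 (SE 0.508) with an adjusted p of 0.609 in edgeR and 0.00417 in limma-voom. It was called in 4 of the 20 alternatives, the others being limma-voom with library weights (adjusted p = 5.95e-04), edgeR with no filter on low counts (1.07e-07) and edgeR without all 4 CHI9 libraries (0.0374). HSP90-2 (Solyc07g065840) had 1956, 588 and 861 CPM in collection 1 and 2637, 1006 and 779 CPM in collection 2, lower in CHI9 and higher in the other genotypes. The cytosolic small heat shock proteins of class I did not pass in edgeR with the filter on low counts. With no such filter sHSP-CI-e (Solyc09g015000) was called (log2 1.59, edgeR adjusted p = 0.0325). The class I locus sHSP-CI-a (Solyc06g076520) had 47.4, 13.3 and 26.3 CPM in collection 1 and 44.1, 45.5 and 22.5 CPM in collection 2.

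Of the ethylene loci 0 of 4 tested were called by edgeR, DESeq2 or limma-voom, and 0 had an unadjusted p under 0.05. Those with a mean of at least 5 CPM, the receptor gene Solyc09g075440 and E4 (Solyc03g111720), had log2 differences of -0.05 and -0.01.

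Over the 24 lists, 216 loci were tested and 1 was called, LHY. Of the 157 listed loci with a mean of at least 5 CPM, 18 more had an unadjusted p under 0.05, against 7.72% of all 18326 tested genes. Without the CHI9 pair edgeR called 0.123% of all tested genes and 1 listed locus, the nitrate reductase gene Solyc11g013810. This locus had 12.6, 19.1 and 29.3 CPM in collection 1 and 26.2, 49.0 and 17.0 CPM in collection 2. It was higher in collection 2 in af and CHI4 and lower in CHI9, and its adjusted p was 0.633 with all libraries and 0.0396 without that pair.

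**Figure D3:**
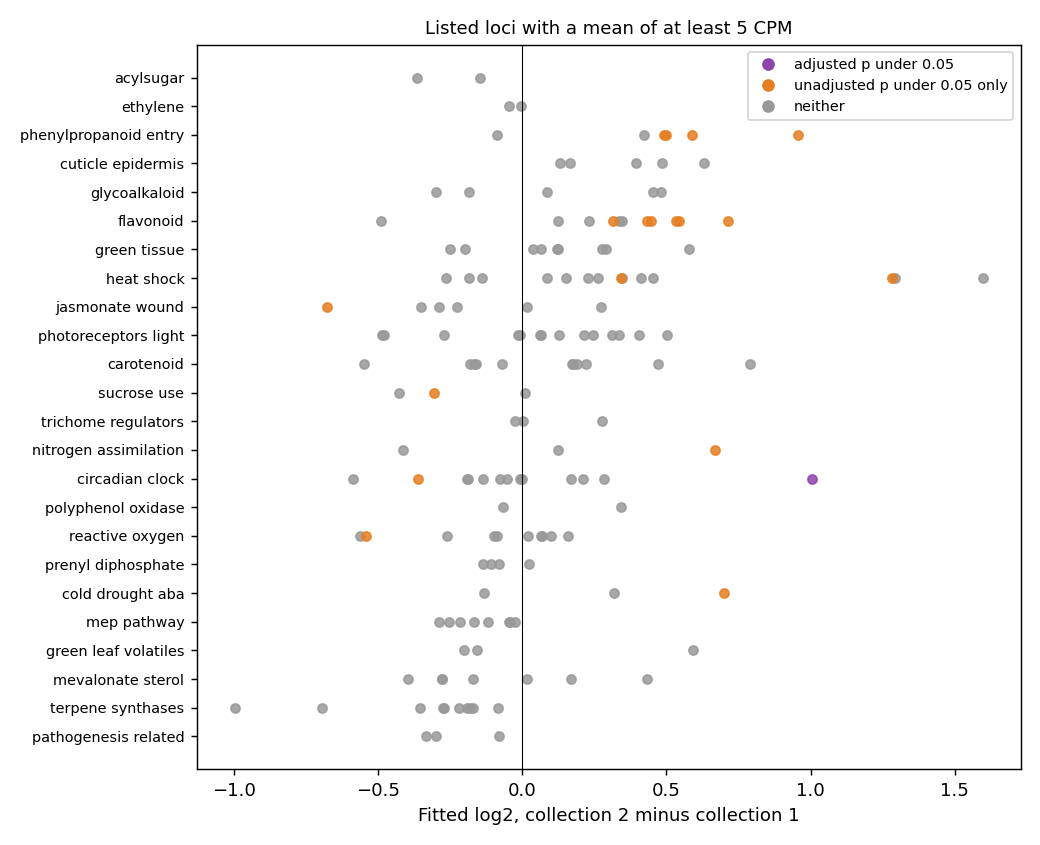
Fitted log2 difference between collection 2 and collection 1 for the 157 listed loci with a mean of at least 5 CPM, 1 row per list, ordered by the median of the list's tested loci, those under 5 CPM included. Purple marks the 1 locus with an adjusted p under 0.05, LHY, and orange the 18 with an unadjusted p under 0.05 only, 6 of which are flavonoid and 4 phenylpropanoid entry loci.

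Markers of other leaf cells gave 0 calls in edgeR. Of 14 tested loci of green tissue 12 had a difference above 0, against 48.3% of all tested genes. The list took 0.112, 0.193 and 0.203% in collection 1 and 0.126, 0.199 and 0.217% in collection 2 of gene counts. Each genotype was slightly higher in collection 2 and the collections overlapped. CAB-m (Solyc07g047850), a light-harvesting protein, had 132, 676 and 494 CPM in collection 1 and 202, 631 and 629 CPM in collection 2. RBCS-d (Solyc07g017950), a small subunit of Rubisco, had 0, 0.0637 and 0 CPM in collection 1 and 0.333, 0.586 and 5.54 CPM in collection 2, and DESeq2 called it (adjusted p = 0.00377) while edgeR did not (adjusted p = 0.377). CHI9 of collection 2 was the highest of all its values.

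The cuticle and epidermis list took 0.0223, 0.00965 and 0.0138% in collection 1 and 0.0253, 0.0154 and 0.0119% in collection 2, with 0 of 7 called by edgeR, DESeq2 and limma-voom and a median of 0.49. All 7 had a fitted difference above 0, against 48.3% of all tested genes, and 2 of the 7 were higher in all 3 genotypes. Acylsugar loci, which mark tip cells of another kind of trichome, took 0.00489, 0.0118 and 0.00898% in collection 1 and 0.00419, 0.0112 and 0.00815% in collection 2, with 0 of 6 called by the same tools. The median log2 difference of these 6 was 0.79, although the list's share was lower in collection 2. The 4 loci above 0 had means under 5 CPM, and the abundant IPMS3 and ASAT3 had log2 differences of -0.37 and -0.15. Its acyltransferase ASAT3 (Solyc11g067270) had 9.29, 77.0 and 48.5 CPM in collection 1 and 11.7, 51.3 and 45.8 CPM in collection 2, while ASAT1 (Solyc12g006330) was too low to be tested, at 0.0111 to 0.669 CPM, and ASAT4 (Solyc01g105580) was at 0 in af of collection 1. The part of these cells in the 16 calls was not tested.

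The spread of log2 changes over genes differed between the 3 pairs of libraries. Over the 11859 genes averaging 5 CPM or more, the standard deviation of the log2 change was 0.373 in af, 0.517 in CHI4 and 0.70 in CHI9. A change of at least 2-fold was seen for 211 genes in af (1.78%), 712 in CHI4 (6.0%) and 1565 in CHI9 (13.2%), with 1 library a side and no test. CHI9 of collection 2 was also the shallowest library, and both CHI9 libraries stood apart from the rest of the series. With 1 library a side, a difference of single libraries cannot be told apart from one of the genotype.

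The direction of change was hardly shared. Across genes, Pearson's r of the log2 changes was 0.0895 between af and CHI4, 0.104 between af and CHI9 and 0.0157 between CHI4 and CHI9, where genes are not independent replicates. The same sign was found for 50.5%, 52.8% and 49.6% of genes in these pairs. The 16 called genes were exceptions by construction, since a call over the 3 genotypes needs changes that go together.

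**Figure D4:**
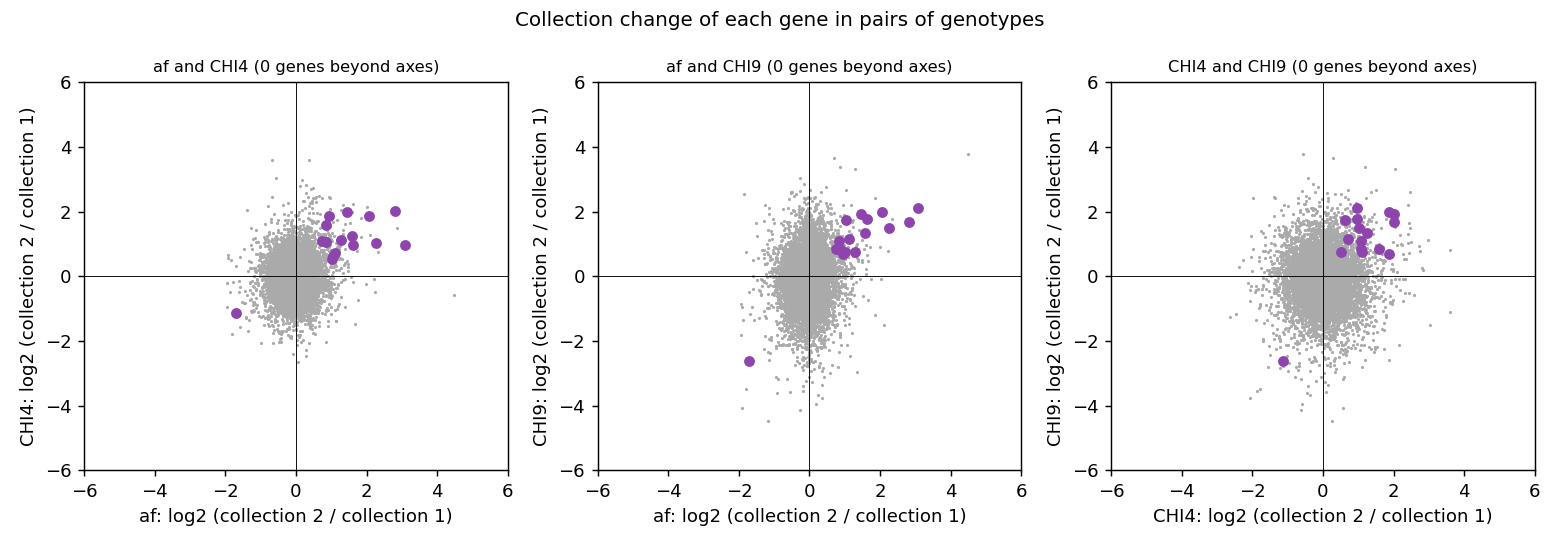
Log2 change from collection 1 to collection 2 of each of the 11859 genes averaging 5 CPM or more (grey), for each pair of genotypes, with the 16 called genes in purple. The grey clouds are wider along CHI4 than along af, and widest along CHI9. Standard deviations are 0.373 in af, 0.517 in CHI4 and 0.70 in CHI9, and r is 0.0895, 0.104 and 0.0157. In each panel 15 purple points lie in the upper right and 1 in the lower left.

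Whether the collection change differed between genotypes was tested by edgeR in a model with an interaction, which leaves 3 residual degrees of freedom. Each genotype's change rests on 1 library a side, so the spread comes from the other libraries of the fit and from the pooling over genes, and the single libraries are taken to vary like them. For af against the lines 0 genes were called (576 at an unadjusted p under 0.05, and 0 called also with DESeq2's size factors or with libraries thinned to the shallowest). For CHI4 against the others 13 genes were called (0.0709%), 8 with a higher change (0.0437%) and 5 with a lower one (0.0273%). For CHI9 18 genes were called (0.0982%), 7 with a higher change (0.0382%) and 11 with a lower one (0.0600%), and 56 when libraries were thinned. Both CHI9 libraries of this contrast stood apart from the rest, and a difference of those 2 libraries cannot be told apart from one of the genotype. None of the 16 genes above was called for CHI9.

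One listed locus was called for a genotype difference. ADH2 (Solyc06g059740), an alcohol dehydrogenase that in tomato fruit converts C6 aldehydes of the green leaf volatile route to alcohols, had 0.991, 62.9 and 15.3 CPM in collection 1 and 0.539, 53.7 and 95.2 CPM in collection 2. It was higher in CHI9 of collection 2, lower in CHI4 and under 1 CPM in both af libraries. The change in CHI9 exceeded that of the others by 3.06 on the log2 scale (edgeR adjusted p = 0.0331). In the other collections CHI9 held 70.6 and 53.5 CPM, so its value of 15.3 CPM in collection 1 was the lowest of the 4.

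Collections 3 and 4, whose files are marked with month 5 and days 5 and 12, form a later pair with the same genotypes and no shared library. Between them 222 genes were called by edgeR (1.21%), 115 higher in collection 4 (0.628%) and 107 lower (0.584%). Of the 15 genes that rose from collection 1 to 2, 14 had a lower level in collection 4 than in collection 3, with log2 differences of -1.40 to 0.30, LHY being the exception at 0.30. Of all tested genes 50.5% were lower in collection 4. Of the 16 genes, 6 were called in the later pair, all lower in collection 4. That is 37.5% of the 16 and 2.70% of the 222, and 0 genes were called in the same direction in both pairs.

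After its rise in collection 2 Solyc07g007240 held 350.3, 471 and 485 CPM in collection 3 and 148, 238 and 119 CPM in collection 4. All of collection 4 lay below all of collection 3, and it fell by 1.40 (edgeR adjusted p = 5.05e-04). The difference of the changes was 3.19 (edgeR adjusted p = 1.42e-06). LHY held 151, 111 and 65.9 CPM in collection 3 and 157, 132 and 102 CPM in collection 4. Its later change was 0.30 (edgeR adjusted p = 0.505), and the difference of its changes was 0.70 (adjusted p = 0.210).

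**Figure D5:**
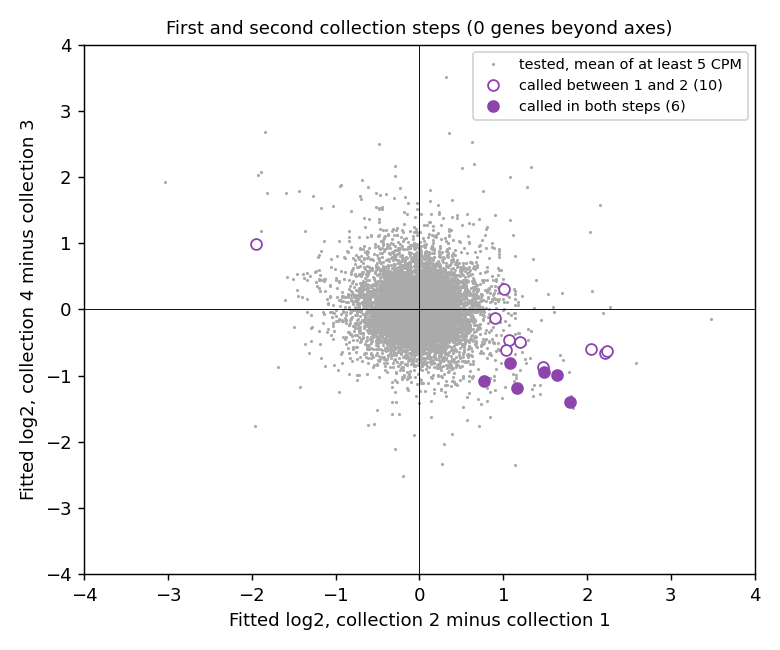
Fitted log2 change from collection 1 to 2 (x axis) against that from collection 3 to 4 (y axis), for genes averaging 5 CPM or more (grey). Purple circles are the 16 genes called between collections 1 and 2, filled for the 6 also called between collections 3 and 4, and 14 of the 15 rises lie below 0 on the y axis.

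Over all genes, the change from collection 1 to 2 differed from that between 3 and 4 for 85 genes (0.464%), 59 with a larger and 26 with a smaller value in the first pair. Of the 16 genes, 15 were among the 85, which follows in part from their choice by the first change. Without CHI9 of collection 2 the count was 50, without af of collection 2 it was 163 and without CHI4 of collection 1 it was 199.

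Of the listed loci described here 2 were among the 85. CHIL held 2135, 2643 and 2789 CPM in collection 3 and 1122, 1991 and 1929 CPM in collection 4, lower in collection 4 where it had been higher in collection 2, and its changes differed by 1.17 (edgeR adjusted p = 0.0269). In the opposite sense, ELIP2 (Solyc09g082700), an early light-induced protein of chloroplasts, had 1919.8, 832 and 643 CPM in collection 1 and 1701, 1086 and 910.0 CPM in collection 2. It then held 697, 549.8 and 390.1 CPM in collection 3 and 2116, 1706 and 1098 CPM in collection 4, and its changes differed by -1.36 (edgeR adjusted p = 0.0065). ELIP2 had a log2 change of 0.22 in the first pair (adjusted p = 0.809) and rose in the later one by 1.58 (edgeR adjusted p = 1.01e-04).

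The number of genes called rested on how the libraries were modelled. Without genotype in the model, so with the pairing by genotype given up, edgeR called 0 genes, with 563 at an unadjusted p under 0.05. With the 6 libraries alone and genotype as the block it called 6, all rises among the 16. DESeq2 called 82 and limma-voom 70, and each of these sets held all 16. Left out in turn, af of collection 1 gave 13 calls of which 5 were among the 16, af of collection 2 gave 30, CHI4 of collection 2 gave 10, CHI9 of collection 1 gave 31 and CHI9 of collection 2 gave 6. The sign of all 16 differences held in all 20 alternatives.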

How the data were processed

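RNA of type VI trichome gland cells was sequenced from 3 genotypes at 4 collections, 12 libraries on 2 lanes each. The authors deposited counts per gene model, 1 file a lane, with no normalization. Trimmomatic, TopHat2, SAMtools and HTSeq were used per the submitters' processing notes. The sources used here state no version, genome build, annotation or strand setting, nor whether a count is a read or a pair. Reads of overlapping or antisense genes therefore cannot be told apart.

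Lanes were summed. Between lanes of a library, chi-square per degree of freedom was 1.87 to 2.03 in the 6 libraries, 8.15 and 5.69 in af and CHI4 of collection 4 and at most 2.21 in the others, against 35.9 to 92.4 between the collections of a genotype. The 5 summary entries of each file were left out, of which reads in no gene took 9.28% to 12.2% in these libraries. Library totals ran from 8.99 to 70.9 M. The counts were filtered by filterByExpr on genotype, scaled by TMM and fitted in edgeR 4.0.16 (R 4.3.3, limma 3.58.1, DESeq2 1.42.0) by robust quasi-likelihood with genotype and collection over all 12 libraries. This fit has 6 residual degrees of freedom and a common biological coefficient of variation of 0.381. Pairing is by genotype, since each genotype gave 1 library to each collection. P-values were adjusted by Benjamini-Hochberg over 18326 genes, with a threshold of 0.05. Log2 differences over genotypes are fitted values, and those within a genotype use TMM-scaled CPM plus 0.5. Gene levels are TMM-scaled CPM and are not per length, so they are compared within a gene only. Tested on simulated counts with 200 changed genes, the collection fit gave 9 false calls.

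The libraries, 24 gene lists (257 loci, 253 in the files, with 1 other locus not reported here) and tests were chosen with earlier results of these data known. Locus names come from general knowledge, since 0 of the reference table's entries hold these locus numbers. Named genes are list members that were called or abundant, and the 2 largest rises and falls among calls with a mean of at least 5 CPM, 1 direction in all genotypes and no overlap (0 falls qualified). List members that were neither, among them AN2, ASAT1, ASAT4, RBCS-d, EID1 and Solyc11g013810, and Solyc07g007240 and Solyc10g006700 were named after their values were seen. Settings were varied 1 at a time in 20 alternatives, of which library weights in limma-voom, leaving out the af and CHI4 libraries of collection 4, and leaving out all CHI9 libraries were chosen after seeing the data.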

Additional observations from a re-analysis of the deposited data

Results flagged for a closer look

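In each genotype the 4 libraries were searched for a sample far from the other 3, over 159 groups of values, where chance flags about 1 in 20 groups. The 5 found are a smaller share than that, so none stands out from what chance would flag. Of these, 2 were from collection 1, 1 from collection 2, 2 from collection 3 and 0 from collection 4. In af of collection 3 the jasmonate and wound list took 0.0439% of counts (others 0.0384% to 0.0389%) and the mevalonate and sterol list 0.101% (others 0.0875% to 0.0897%). In CHI4 of collection 1 the jasmonate and wound list took 0.0414% (others 0.0346% to 0.0351%). RBCS-d (Solyc07g017950) had 5.54 CPM in CHI9 of collection 2, against 0 to 0.795 CPM in the other CHI9 libraries. ASR-c (Solyc04g071620), a ripening and drought-related protein, had 856 CPM in CHI9 of collection 1, against 1020.1 to 1050.5 CPM.

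The change from collection 1 to 2 differed by edgeR from that between collections 3 and 4 for 85 genes, also counted in the report. On the log2 scale the difference was 2.86 for Solyc10g074440 (adjusted p = 0.011), 2.86 for Solyc03g034390 (adjusted p = 0.00813), 3.19 for Solyc07g007240 and -2.94 for Solyc10g006700 (adjusted p = 0.00535), all 4 chosen by the first change. It was 1.17 for CHIL and -1.36 for ELIP2. The collection change of 1 genotype differed from that of the others for 13 genes in CHI4 and 18 in CHI9, among them ADH2, by 3.06.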

How the results depend on the processing

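Counts are given as genes called, higher and lower, beside 16, 15 and 1 in the report. In the fits on the replicate block, with genotype as the block, no replicate block gave 0, 0 and 0, and the 6 libraries alone with the block gave 6, 6 and 0. DESeq2 gave 82, 58 and 24, limma-voom 70, 50 and 20, and no low-count filter 199, 111 and 88. With no filter 1796 of 24536 genes had an unadjusted p under 0.05 in edgeR, against 1414 of 18326 in the report. The many more calls and the very small adjusted p-values of that fit are therefore read with caution. Of the alternatives chosen after seeing the data, limma-voom with a weight per library gave 99, 75 and 24, leaving out af and CHI4 of collection 4 gave 8, 8 and 0, and leaving out all 4 CHI9 libraries 15, 13 and 2. Without the CHI9 pair 24, 20 and 4 were called, of which 6 were among the 16. Lane 1 alone gave 15, 15 and 0, and lane 2 alone 12, 12 and 0. Leaving out 1 of the 6 libraries gave 6 to 31 called, 6 to 26 higher and 0 to 10 lower. DESeq2's size factors and halved counts each gave 16, and thinning to the shallowest library 11. The difference between the 2 collection steps had 85 calls, 50 to 199 with 1 library left out and 477 with no low-count filter. Genotype differences in CHI9 numbered 18, and 56 after thinning. The sign turned for MYC1 (main value 0.00), to -0.040 without the CHI9 pair, -0.057 without all CHI9 libraries, -0.0055 in limma-voom, -0.027 with library weights and -0.0070 with lane 1 alone, and ran from -0.070 to 0.10 with 1 library left out (below 0 for CHI4 or CHI9 of either collection). It turned for ADH2 (main value 0.59), to -0.42 without the CHI9 pair, -0.46 without all CHI9 libraries and from -0.10 to 1.18 with 1 library left out (below 0 for CHI9 of either collection), and for NDPS1 (main value -0.08), from -0.21 to 0.10 with 1 library left out (above 0 without CHI4 of collection 1). None of these 3 passed the test between collections 2 and 1. The cause of these shifts was not tested. With 3 libraries a side, changes of 0.5 log2 units were mostly below detection, and CHI9 of collection 2, at 8.99 M counts, limits the low genes.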

Other observations

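Of 9 tested loci of cold, drought and abscisic acid responses and 16 of jasmonate and wound responses, 0 were called by edgeR between collections 2 and 1. An unadjusted p under 0.05 was found for 2 and 1 of them, against 7.72% of all tested genes. The 2 were 1 higher and 1 lower in collection 2, and the 1 was lower. Of the 9 cold and drought loci 3 had a difference above 0, with a median of -0.13 and a range of -3.73 to 2.62. Of the 16 jasmonate and wound loci 11 had a difference above 0, with a median of 0.18. ASR-c (Solyc04g071620) had 426, 285 and 856 CPM in collection 1 and 529.8, 819 and 1023 CPM in collection 2, higher in each genotype and most in CHI4 (log2 0.70, SE 0.199, edgeR adjusted p = 0.391). It was called with no low-count filter (adjusted p = 0.00348) and with library weights in limma-voom (adjusted p = 0.0468). JAZ1 (Solyc07g042170), a repressor of jasmonate responses, had 16.4, 19.4 and 25.4 CPM in collection 1 and 9.76, 13.2 and 15.1 CPM in collection 2, lower in each genotype (log2 -0.68, SE 0.269, edgeR adjusted p = 0.542). The collections overlapped for ASR-c and did not for JAZ1, and 3.01% of all tested genes had collection 2 wholly below collection 1. Another of the 16 jasmonate and wound loci had collection 2 wholly above collection 1, as did 3.08% of all tested genes.

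Among loci of carbon and pigment supply, sucrose synthase SUS3 (Solyc07g042550) had 795, 872 and 759 CPM in collection 1 and 619, 649 and 693 CPM in collection 2, with no overlap and a log2 difference of -0.30 (edgeR adjusted p = 0.638). As above, 3.01% of all tested genes had such a gap. Of the 5 tested loci of sucrose use 3 had a difference above 0, with a median of 0.01 and a highest value of 1.42. In 1 of the 5 collection 2 lay wholly above collection 1. Polyphenol oxidase PPO-a (Solyc08g074620), an enzyme stored in the gland that browns phenolics when the gland breaks, had 2483, 5923 and 6411 CPM in collection 1 and 2147, 5888 and 6547 CPM in collection 2. It was lower in af and CHI4 and slightly higher in CHI9, and its fitted difference was -0.07 (95% interval -0.39 to 0.25).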
